A study of Mus musculus with 36 samples.

Results

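The 8 genes described here are Nif3l1, Trip10, Plek, Gulo, Dip2c, Mctp1, Dpp9 and Chrdl1, out of 21968 genes in the deposited table and 12812 that were tested. They were chosen by the p of the genotype comparison: their unadjusted p was small when mice labelled Drp1_KO were compared with mice labelled Drp1_WT, while none of them passed an adjusted p of 0.05. The difference between the genotype labels therefore chose these genes, and it is given below as a description and not as a result. A small p also needs little spread between mice of one label, so the choice favoured genes that were even across those mice. The choice used sums per mouse and did not use the levels of single oocytes as such, how the genes varied together within mice, or the values of their relatives and chromosomal neighbours.

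The study sequenced single mouse oocytes at the germinal vesicle stage, each in a tube and a library of its own, and oocytes are named here by the tube number in their title. The labels give 18 oocytes from 4 mice (a to d) as Drp1_KO and 18 oocytes from 5 mice (1 to 5) as Drp1_WT, with 4 to 5 oocytes per Drp1_KO mouse and 3 to 5 per Drp1_WT mouse. Drp1 is the protein of Dnm1l, a dynamin-related GTPase that pinches mitochondria and peroxisomes apart. The strain, the age, the deleted part of the gene and the cells in which it was deleted are not stated in the sources at hand, and all groups share the same handling, lysis and kits as far as the labels say.

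An oocyte with a germinal vesicle still has its large nucleus and waits in meiotic prophase, and once fully grown it makes little new RNA and lives on transcripts stored during growth. The 8 genes belong to no single pathway. They include a secreted inhibitor of bone morphogenetic proteins (BMPs, growth factors used in talk between oocyte and follicle), proteins that act on membranes and the cytoskeleton, and enzymes of vitamin C synthesis and of peptide cleavage.

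Totals ran from 3178509 to 7104219 counts per oocyte labelled Drp1_KO and from 4699541 to 7406895 counts per oocyte labelled Drp1_WT, and 11350 to 14659 genes had a count. Dnm1l averaged 207 ± 15.8 CPM in Drp1_KO mice and 239 ± 69.2 CPM in Drp1_WT mice (SD, n = 4 and 5; CPM is counts in each 1e6, scaled per mouse by TMM factors). The log2 fold change of Dnm1l was -0.21 (SE 0.19, adjusted p = 0.706 by edgeR's quasi-likelihood test), so the targeted gene did not separate the labels beyond the spread between mice. In tubes 11 to 15 of Drp1_WT, Dnm1l was 116 to 156 CPM, against 234 to 322 CPM in the other Drp1_WT oocytes and 144 to 274 CPM in Drp1_KO oocytes. Tube 29 of Drp1_WT had the highest level of Mfhas1 and of Eri1 among Drp1_WT oocytes, 20.8 and 83.7 CPM, inside the Drp1_KO ranges of 19.4 to 39.0 CPM and 72.4 to 170 CPM. These 6 libraries, which went against their labels in those genes, and tube 10 of mouse b are followed separately below.

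Markers of the oocyte were abundant in nearly every library. The summed level of 16 oocyte markers was 23770 to 34592 CPM in 17 of the 18 Drp1_KO oocytes and 23396 to 37021 CPM in Drp1_WT oocytes. The exception was tube 10 of mouse b, labelled Drp1_KO, with 6749 CPM. In that library Zp3 was at 13.5 CPM against a median of 3297 CPM over all oocytes. Dazl (1887 CPM, the highest of all oocytes) and Oosp1 (3273 CPM) were above their medians of 1010 and 2241 CPM there. The other oocyte markers with a median above 0 were below it. The sum of 21 leukocyte, platelet and red cell markers was 840 CPM in tube 10. It was 5.40 to 15.1 CPM in the other Drp1_KO oocytes and 6.99 to 14.1 CPM in Drp1_WT oocytes. Of these 21 markers 16 had a median of 0 and 1 was at 0 in every oocyte. The summed level of 18 granulosa and cumulus markers was 84.3 to 191 CPM in Drp1_KO oocytes, or up to 150 CPM without tube 10. It was 97.2 to 163 CPM in Drp1_WT oocytes, and 5 of the 18 had a median of 0. Cyp19a1 and Nr5a2, with medians of 61.5 and 32.6 CPM, were the largest parts of these sums. Among the 12 that were tested between the labels 4 were higher and 8 lower in Drp1_KO, with 0 past an adjusted p of 0.05 in edgeR. Cyp11a1 had a log2 fold change of -1.70 (SE 0.55, adjusted p = 0.499 by edgeR). The part of these markers in the levels below was not tested, except where values without tube 10 are given.

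In the comparison of mice, edgeR called 0 of the 8 genes at an adjusted p of 0.05 and 2 of the 12812 genes tested (0.0156%). At an unadjusted p under 0.05 it called 1242 genes (9.69%), 626 higher (4.89%) and 616 lower (4.81%) in Drp1_KO. By order of p the 8 genes held ranks 3 to 10, with adjusted p of 0.200 to 0.314 in edgeR. Just inside the choice stood Dpp9 at adjusted p = 0.314, and the next gene in order, Gm29797, had an adjusted p of 0.398 in edgeR. Before them stood Mfhas1 and Eri1, with adjusted p of 0.00389 and 0.0118 in edgeR. Among the 8, 2 were higher in Drp1_KO (Nif3l1 and Mctp1) and 6 were lower. All 8 had no overlap between the mice of the labels, as had 328 of all genes tested (2.56%), 163 with Drp1_KO higher (1.27%) and 165 with Drp1_KO lower (1.29%). Single oocytes of the labels overlapped for all 8 and for every gene tested (0.0%). DESeq2 put all 8 past its adjusted p of 0.05, with 37 of 14436 genes called (0.256%). limma-voom on single oocytes, with the mouse as a random effect, put Nif3l1, Gulo and Dip2c past it, with 9 of 10658 genes called (0.0844%). The same contrast chose the genes, so nothing is read from these counts.

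**Figure D1:**
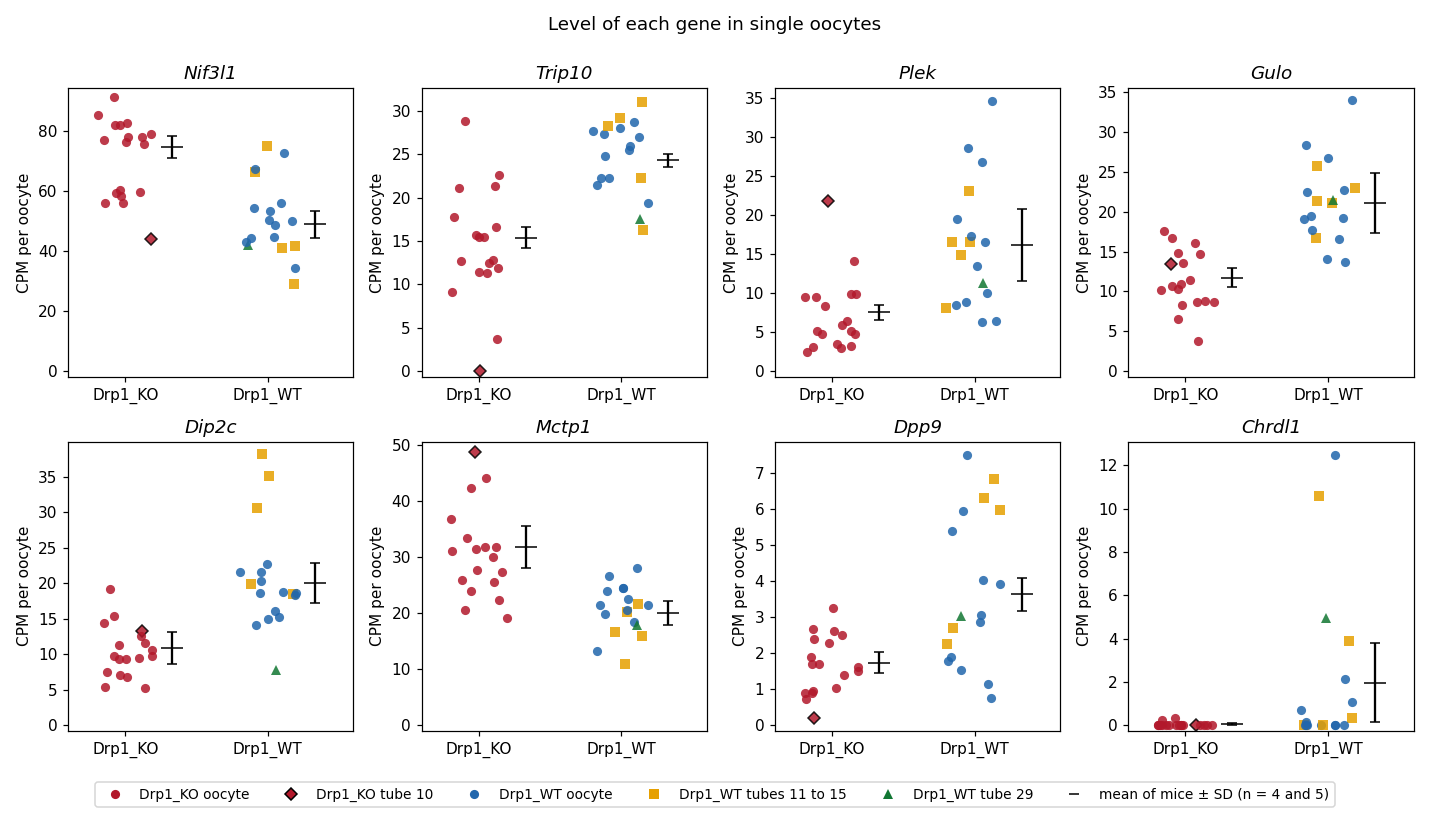
Level of each gene in single oocytes, in CPM from the oocyte's own total, with one panel per gene, Drp1_KO left and Drp1_WT right. The bar beside the points is the mean of the mice ± SD (n = 4 and 5), and the oocyte ranges overlap for all 8 genes, as for Gulo at 3.80 to 17.5 CPM in Drp1_KO and 13.6 to 34.0 CPM in Drp1_WT.

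Chrdl1 (ENSMUSG00000031283, GRCm38 chrX:143285674-143394262, minus strand) encodes chordin-like 1, a secreted protein that binds BMPs and keeps them from their receptors. It was detected in 2 of 18 Drp1_KO oocytes, at 0.216 and 0.337 CPM, and in 9 of 18 Drp1_WT oocytes. The Drp1_KO oocytes held 3 counts of it among 102342311, and the Drp1_WT oocytes held 225 among 109221471. Of the 3 Drp1_KO counts 2 came from tube 29 of mouse d. In the 4 Drp1_KO mice its level was 0, 0, 0.0368 and 0.0984 CPM, and in the 5 Drp1_WT mice it was 4.59, 0.803, 3.06, 0.105 and 1.25 CPM. The 2 highest oocytes, tube 2 of mouse 1 (12.5 CPM) and tube 11 of mouse 3 (10.6 CPM), held 145 of the 225 counts (64.4%). With tube 29 (4.95 CPM) and tube 12 (3.88 CPM) they held 201 (89.3%). Chrdl1 was thus a gene of few oocytes: it was at 0 in 9 of 18 Drp1_WT oocytes and reached 1 CPM in 6 of them. It passed the filter on low counts through Drp1_WT alone, with 4 Drp1_WT mice and 0 Drp1_KO mice over the minimum of 0.43 CPM, so it had to differ. Thinning every oocyte to 3178509 counts left the same 2 and 9 oocytes with a count. The summed stroma, endothelium and epithelium markers were 33.2 to 68 CPM over Drp1_KO oocytes and 34.8 to 86.1 CPM over Drp1_WT oocytes. They were 86.1, 75.8, 50.5 and 70.7 CPM in tubes 2, 11, 29 and 12 of Drp1_WT. In tubes 13 and 1 of Drp1_WT, where Chrdl1 was at 0, they were 85.3 and 69.2 CPM. Of the 17 markers in these sums 10 had a median of 0. Pecam1 and Tek, detected in all 36 oocytes with medians of 36.6 and 9.8 CPM, were the largest parts by median. Sums made mostly of Pecam1 and Tek cannot show whether stroma RNA was carried over. In tubes 2, 11, 29 and 12 the granulosa marker Hsd3b1 was at 14.9, 19.6, 0.319 and 6.99 CPM (median 1.76 CPM). Cyp11a1 was at 9.16, 13.8, 1.44 and 6.37 CPM there (median 1.68 CPM), and Inha at 17.1, 24.0, 1.44 and 9.01 CPM (median 5.50 CPM). Cyp19a1 was at 54.7, 41.8, 58.3 and 41.2 CPM in the same tubes, below its median of 61.5 CPM. Other markers of the granulosa list were mixed there. Fshr was below its median of 2.44 CPM in tubes 2, 11 and 29 and above it in tube 12. Nr5a2 was below its median of 32.6 CPM in tubes 2, 29 and 12 and above it in tube 11. Star was above its median of 0.97 CPM in all of these tubes. Foxl2 and Amh, with medians of 0, stayed under 1 CPM in them. The highest Hsd3b1 and Cyp11a1 levels, 27.1 and 24.4 CPM, were in other oocytes. The part of these markers in the Chrdl1 level was not tested.

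Trip10 (ENSMUSG00000019487, chr17:57249455-57263665, plus strand), also called CIP4, is an F-BAR protein that curves the plasma membrane and joins Cdc42 to actin assembly. In Drp1_KO mice a to d it stood at 15.2, 13.8, 15.8 and 16.7 CPM, and in Drp1_WT mice 1 to 5 at 25.1, 23.5, 24.3, 23.5 and 25.1 CPM. The means were 15.4 ± 1.22 CPM in Drp1_KO and 24.3 ± 0.800 CPM in Drp1_WT, a log2 fold change of -0.66 (SE 0.12). Single oocytes ran from 0 through a median of 14.1 to 28.8 CPM in Drp1_KO, and from 16.3 through a median of 25.7 to 31.1 CPM in Drp1_WT. The 0 was tube 10 of mouse b, and the lowest of the other Drp1_KO oocytes had 3.77 CPM. Of 18 Drp1_KO oocytes 12 lay below every Drp1_WT oocyte, and 2 Drp1_WT oocytes lay above every Drp1_KO oocyte. Without tube 10 the log2 fold change was -0.62 (SE 0.11).

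Dpp9 (ENSMUSG00000001229, chr17:56186807-56218905, minus strand) is a cytosolic protease that removes dipeptides after proline and restrains the NLRP1 inflammasome. Its level was 1.88, 1.98, 1.76 and 1.33 CPM in Drp1_KO mice a to d, and 4.37, 3.21, 3.75, 3.35 and 3.48 CPM in Drp1_WT mice 1 to 5. The means of 1.74 ± 0.287 CPM in Drp1_KO and 3.63 ± 0.458 CPM in Drp1_WT gave a log2 fold change of -1.06 (SE 0.21). Among single oocytes it ran from 0.204 through 1.64 to 3.25 CPM in Drp1_KO and from 0.755 through 3.05 to 7.51 CPM in Drp1_WT (lowest, median and highest). Here the overlap of oocytes was wide on the low side: 2 Drp1_KO oocytes lay below every Drp1_WT oocyte, while 8 Drp1_WT oocytes lay above every Drp1_KO oocyte.

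Trip10 and Dpp9 are the only 2 of the 8 within 2 Mb of each other, 1030549 bases apart on chromosome 17. Their promoters are shown because these genes lie in one stretch and were both lower in Drp1_KO, with that of Dip2c as another gene that was lower. The windows run from 250 bases before to 50 after the RefSeq start on GRCm38.p6, at chr17:57249201-57249500 (plus strand), chr17:56218840-56219139 (minus strand) and chr13:9276275-9276574 (plus strand). Capitals mark matches, on either strand, to GGGCGG (the GC box) and CCAAT (the CCAAT box).
Trip10: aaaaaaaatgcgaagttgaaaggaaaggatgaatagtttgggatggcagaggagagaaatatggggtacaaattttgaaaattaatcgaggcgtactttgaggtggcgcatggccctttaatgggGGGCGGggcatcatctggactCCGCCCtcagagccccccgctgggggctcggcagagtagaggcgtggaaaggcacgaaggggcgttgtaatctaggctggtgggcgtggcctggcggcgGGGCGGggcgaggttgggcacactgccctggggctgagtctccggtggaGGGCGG
Dpp9: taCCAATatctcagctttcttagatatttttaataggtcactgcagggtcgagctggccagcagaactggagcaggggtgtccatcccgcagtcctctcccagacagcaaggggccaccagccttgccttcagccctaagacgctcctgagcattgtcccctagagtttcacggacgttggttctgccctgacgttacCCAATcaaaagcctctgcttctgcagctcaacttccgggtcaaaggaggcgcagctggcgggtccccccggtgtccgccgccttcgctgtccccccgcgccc
Dip2c: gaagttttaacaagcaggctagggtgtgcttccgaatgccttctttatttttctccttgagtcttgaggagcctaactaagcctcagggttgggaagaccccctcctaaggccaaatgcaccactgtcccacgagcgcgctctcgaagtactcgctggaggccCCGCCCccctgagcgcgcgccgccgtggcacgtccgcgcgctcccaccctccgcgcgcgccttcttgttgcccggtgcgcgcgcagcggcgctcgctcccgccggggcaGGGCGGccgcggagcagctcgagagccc
The Trip10 window held 4 GC boxes and the Dip2c window 2, and the motif is in 35.7% of 32851 mouse promoters of the same length. The Dpp9 window held 2 CCAAT boxes, a motif in 37.4% of promoters, and no GC box. TATAAA (in 13.6% of promoters), CACGTG (7.15%) and TAATTG (8%) were in none of the 6 windows found, those of Nif3l1, Trip10, Plek, Dip2c, Mctp1 and Dpp9. The share of G and C was 59% for Trip10, 59.3% for Dpp9 and 66.7% for Dip2c, against a median of 52.7% over all promoters, and no motif of this list is in all 3 windows.

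Dip2c (ENSMUSG00000048264, chr13:9276528-9668928, plus strand) is a large protein of the disco-interacting protein 2 family, with domains like those of enzymes that activate acids with ATP. In Drp1_KO mice a to d it was at 9.16, 13.4, 8.86 and 12 CPM, and in Drp1_WT mice 1 to 5 at 18.4, 18.8, 22.3, 23.6 and 17 CPM. The log2 fold change was -0.88 (SE 0.17), from means of 10.9 ± 2.21 CPM in Drp1_KO and 20.01 ± 2.80 CPM in Drp1_WT. Oocytes ran from 5.2 through 9.76 to 19.1 CPM in Drp1_KO and from 7.83 through 18.7 to 38.3 CPM in Drp1_WT. The 3 highest of all 36 oocytes were tubes 13, 11 and 12 of Drp1_WT, at 38.3, 35.1 and 30.6 CPM, and the lowest Drp1_WT oocyte was tube 29. Without tubes 11 to 15 the log2 fold change was -0.71 (SE 0.17).

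Plek (ENSMUSG00000020120, chr11:16971206-17052381, minus strand) encodes pleckstrin, the major target of protein kinase C in platelets and leukocytes. Its level in Drp1_KO mice a to d was 8.55, 8.28, 6.51 and 6.84 CPM, against 12.6, 24.2, 14, 15.1 and 15.1 CPM in Drp1_WT mice 1 to 5. Mouse 2 stood above the other Drp1_WT mice, and the means were 7.54 ± 1.02 CPM in Drp1_KO and 16.2 ± 4.59 CPM in Drp1_WT (log2 fold change -1.10, SE 0.20). Single oocytes ran from 2.52 through 5.60 to 21.9 CPM in Drp1_KO and from 6.31 through 15.7 to 34.7 CPM in Drp1_WT. The highest Drp1_KO oocyte was tube 10 of mouse b, and the highest of the other Drp1_KO oocytes had 14.1 CPM. Tube 10 had 440 CPM of the leukocyte marker Lyz2 and 90.7 CPM of Pf4, listed as a platelet marker. The other platelet markers of the list, Ppbp, Itga2b and Gp9, were at 0 there. So were the red cell markers Hba-a1, Hbb-bs and Alas2 and the leukocyte markers Cd14, Cd3e and Cd79a. Without tube 10 the log2 fold change was -1.26 (SE 0.21). Plek was detected in all 36 oocytes. Leukocyte markers differed in this: Cd68 and Laptm5 were also detected in 36 oocytes, with medians of 4.11 and 3.07 CPM, and Csf1r in 35, while Ptprc had a count in 3 and Tyrobp in 3. The part of leukocyte RNA in the Plek level was not tested beyond the value without tube 10.

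Gulo (ENSMUSG00000034450, chr14:65986786-66009207, minus strand) is L-gulonolactone oxidase, the last enzyme of vitamin C synthesis, which is best known from mouse liver and is lost in humans. It had 12.8, 10.3, 11.2 and 12.6 CPM in Drp1_KO mice a to d, and 27.3, 19.5, 18.8, 21.8 and 18.1 CPM in Drp1_WT mice 1 to 5. Means of 11.7 ± 1.18 CPM in Drp1_KO and 21.1 ± 3.74 CPM in Drp1_WT gave a log2 fold change of -0.85 (SE 0.15). Of all 8 genes Gulo separated the single oocytes of the labels most: 13 Drp1_KO oocytes lay below every Drp1_WT oocyte and 14 Drp1_WT oocytes lay above every Drp1_KO oocyte. Per kb of exon Gulo was among the more abundant of the 8, at 5.19 CPM per kb in Drp1_KO and 9.33 CPM per kb in Drp1_WT.

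Nif3l1 (ENSMUSG00000026036, chr1:58445151-58481816, plus strand) is a conserved protein of the NIF3 family that binds COPS2, a subunit of the COP9 signalosome. It was one of the 2 genes that were higher in Drp1_KO, at 75.1, 74.6, 70.3 and 79.1 CPM in mice a to d, against 44.2, 50.9, 49.8, 44.8 and 55 CPM in Drp1_WT mice 1 to 5. The means of 74.8 ± 3.60 CPM in Drp1_KO and 49 ± 4.47 CPM in Drp1_WT gave a log2 fold change of 0.61 (SE 0.10). Single oocytes ran from 44.1 through 76.7 to 91.2 CPM in Drp1_KO and from 29 through 49.5 to 75.1 CPM in Drp1_WT. Of 18 Drp1_KO oocytes 11 lay above every Drp1_WT oocyte, and 6 Drp1_WT oocytes lay below every Drp1_KO oocyte. Nif3l1 overlaps genes on the opposite strand, sharing 336 exon bases with Ppil3 at its 5′ end and 1150 with Orc2 at its 3′ end, and the kit does not keep strand. Neither partner passed the adjusted p of 0.05 in edgeR: Ppil3 averaged 134 ± 42.7 CPM in Drp1_KO and 170 ± 40.8 CPM in Drp1_WT, and Orc2 averaged 70.4 ± 5.40 CPM in Drp1_KO and 71.5 ± 8.98 CPM in Drp1_WT. Plek likewise shares 199 exon bases with Cnrip1, which was at 0.758 ± 0.185 CPM in Drp1_KO and 0.745 ± 0.525 CPM in Drp1_WT. The RefSeq window at the Nif3l1 start, chr1:58444901-58445200 (plus strand), is shown because Ppil3 starts near it on the other strand, and it holds none of the motifs above.
Nif3l1: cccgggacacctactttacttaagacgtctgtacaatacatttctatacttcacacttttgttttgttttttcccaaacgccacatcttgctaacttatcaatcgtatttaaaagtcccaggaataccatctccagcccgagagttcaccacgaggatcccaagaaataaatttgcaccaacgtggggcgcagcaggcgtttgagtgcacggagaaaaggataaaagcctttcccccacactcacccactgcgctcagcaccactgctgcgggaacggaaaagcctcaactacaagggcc

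Mctp1 (ENSMUSG00000021596, chr13:76384535-77031810, plus strand) is a membrane protein of the endoplasmic reticulum and vesicles whose C2 domains bind calcium. It too was higher in Drp1_KO, at 31.4, 36.8, 27.9 and 30.9 CPM in mice a to d, against 20.5, 23.3, 18.2, 18.1 and 20.2 CPM in Drp1_WT mice 1 to 5. From means of 31.7 ± 3.69 CPM in Drp1_KO and 20.1 ± 2.15 CPM in Drp1_WT the log2 fold change was 0.66 (SE 0.13). Oocytes ran from 19.2 through 30.5 to 48.6 CPM in Drp1_KO, where tube 10 of mouse b was highest, and from 10.9 through 21 to 28.1 CPM in Drp1_WT. Of the Drp1_KO oocytes 10 lay above every Drp1_WT oocyte. Without tube 10 the log2 fold change was 0.61 (SE 0.12), and without tube 10 and tubes 11 to 15 and 29 it was 0.47 (SE 0.13).

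Per kb of exon the 8 genes spanned a wide range of levels. In Drp1_KO the order from the top was Nif3l1 (9.63 CPM per kb), Gulo, Trip10 (4.84), Mctp1 (3.87), Plek (1.68), Dip2c (1.32), Dpp9 (0.220) and Chrdl1 (0.00500 CPM per kb). In Drp1_WT Gulo and Trip10 (7.64 CPM per kb) stood above Nif3l1 (6.31 CPM per kb), and Plek (3.61 CPM per kb) stood above Mctp1 (2.45) and Dip2c (2.43), while Dpp9 (0.461) and Chrdl1 (0.290 CPM per kb) were again last. Of the 288 values of the 8 genes over 36 oocytes, 262 had at least 1 count: the other values were those of Chrdl1 in 25 oocytes and of Trip10 in tube 10 of mouse b.

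**Figure D2:**
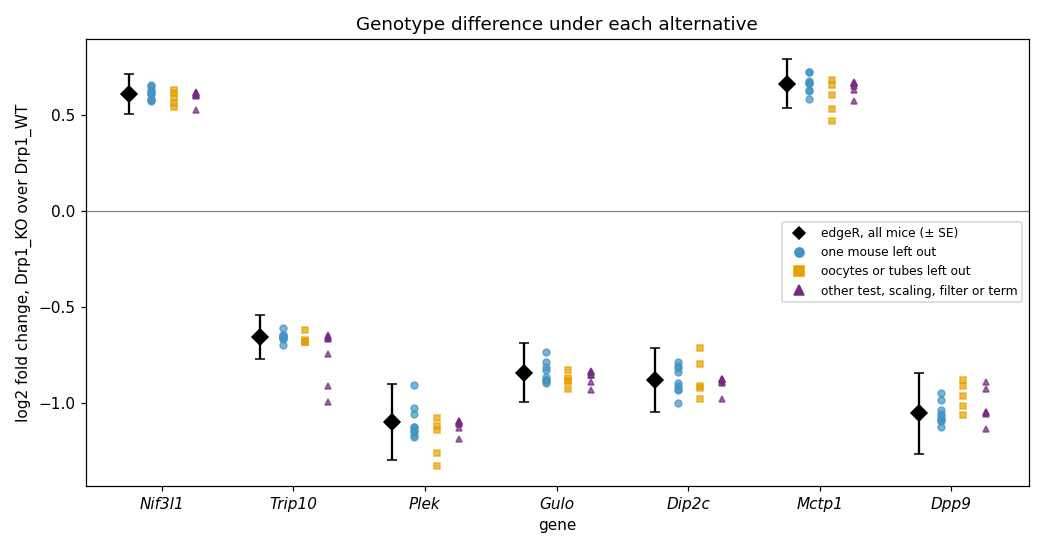
log2 fold change of 7 genes between the genotype labels, Drp1_KO over Drp1_WT, with all mice (diamond ± SE) and under the alternatives (smaller points, 1 per setting). No point of these 7 genes crosses 0, and the values span 0.52 to 0.66 for Nif3l1 and -1.33 to -0.91 for Plek. Chrdl1 is left out because its fitted value rests on few counts.

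Across 22 alternatives (21 for Dpp9) the 7 genes other than Chrdl1 kept the sign that chose them. The alternatives refit the counts that chose the genes, so the kept sign is a description. The lowest and highest log2 fold changes were -0.99 and -0.61 for Trip10, -0.94 and -0.74 for Gulo, -1.0 and -0.71 for Dip2c, 0.47 and 0.73 for Mctp1, and -1.14 and -0.88 for Dpp9. The value of -0.99 for Trip10 came from limma-trend on the mean of log2 CPM over oocytes, a mean that the 0 of tube 10 enters on the log scale. Chrdl1 could be tested in 13 alternatives, since it fell under the filter in the others, and it passed the adjusted p of 0.05 in edgeR once mouse 4 was left out (adjusted p = 0.0280) and in DESeq2. Over all its alternatives the adjusted p ran from 0.0110 to 0.756. Index numbers, the last number of each title, were 60 to 77 for Drp1_KO and 42 to 59 for Drp1_WT, so whatever they mark and the genotype cannot be told apart.

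The same mice were also compared by tube set. Tubes 27 to 30 came from mouse d (Drp1_KO) and mouse 5 (Drp1_WT), and tubes 1 to 15 from the other 7 mice, and the labels do not say what the numbers mark. With genotype as a term, edgeR called 639 of 12812 genes at an adjusted p of 0.05 (4.99%), 459 higher and 180 lower in tubes 27 to 30. Of the 8 genes 0 passed, with adjusted p of 0.373 to 0.95, and 0 had an unadjusted p under 0.05, which 3320 of all genes had (25.9%). The log2 fold changes, tubes 27 to 30 over tubes 1 to 15, were 0.16 (SE 0.11) for Nif3l1, 0.11 (SE 0.13) for Trip10 and -0.25 (SE 0.25) for Dpp9. They were -0.15 (SE 0.23) for Plek, -0.069 (SE 0.18) for Gulo, -0.055 (SE 0.19) for Dip2c and -0.021 (SE 0.15) for Mctp1. Chrdl1, at -0.39, had an SE of 1.25, so a large difference in it was not detectable. The median of the 8 was -0.062 and that of all genes -0.035. The count of 639 depends on single mice: it was 8, 419, 229 and 4 without mouse a, b, c or d, and 1675, 7 and 1 without mouse 2, 4 or 5. It was 1239 without tube 10 of mouse b and 1 without tubes 11 to 15 of Drp1_WT, and 0 of the 8 genes passed in any of these fits. Mice d and 5 set against the other mice of their label are part of the spread between mice that entered the p of the choice. The small tube set differences of the 8 genes were therefore partly selected for and are a description.

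The oocytes of tubes 11 to 15 and 29 were then placed on either side of a midpoint for each gene, midway on the log2(CPM+1) scale between the mean of 18 Drp1_KO oocytes and that of the 12 other Drp1_WT oocytes. Of their 48 values 7 (14.6%) lay on the Drp1_KO side, 6 of 40 in tubes 11 to 15 (15%) and 1 of 8 in tube 29 (12.5%). Of the 144 values of Drp1_KO oocytes 113 lay on the Drp1_KO side (78.5%; 107 of 136 or 78.7% without tube 10), as did 23 of 96 in the 12 other Drp1_WT oocytes (24.0%). Single Drp1_KO oocytes had 3 to 8 of the 8 genes on the Drp1_KO side, the 6 oocytes had 0 to 3, and the 12 other Drp1_WT oocytes 1 to 4. The genes were chosen with all these oocytes in the comparison, so the placement is a description. For these 8 genes the 6 libraries mostly sat with those that share their label, Dip2c in tube 29 being an exception. The choice favoured this placement, since it counted the 6 libraries as Drp1_WT. In Dnm1l (tubes 11 to 15) and in Mfhas1 and Eri1 (tube 29) these libraries stood apart from the other Drp1_WT oocytes.

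**Figure D3:**
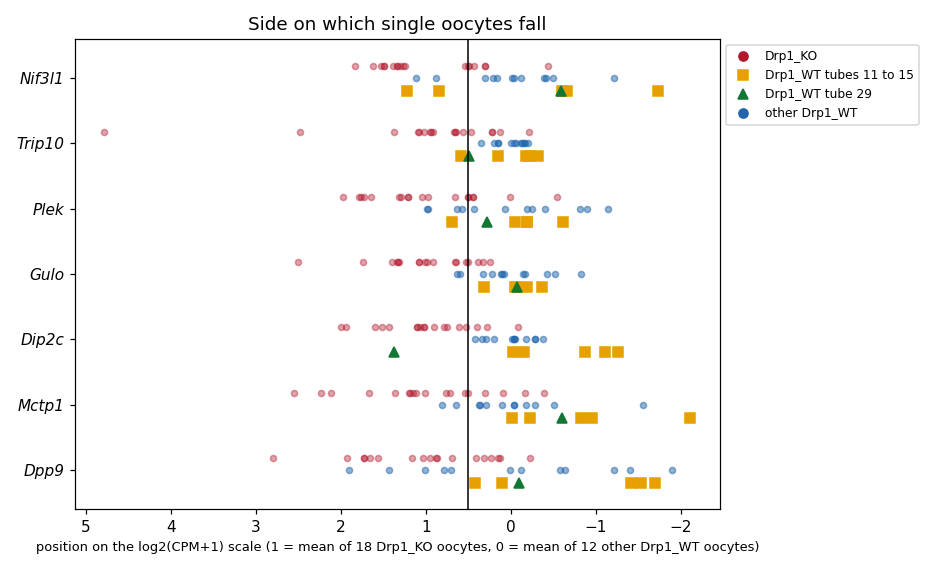
Position of each oocyte for 7 genes on the log2(CPM+1) scale, where 1 is the mean of 18 Drp1_KO oocytes and 0 the mean of 12 other Drp1_WT oocytes; the axis runs from high at the left to low at the right and the line at 0.5 is the midpoint. Points are oocytes, with tubes 11 to 15 as squares and tube 29 as a triangle, and tube 29 crosses the line for Dip2c alone. Chrdl1 is not drawn, since its midpoint of 0.256 CPM is close to 1 count.

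By gene, Gulo, Mctp1 and Dpp9 had none of the 6 oocytes on the Drp1_KO side. Gulo was at 16.7, 21.3, 25.8, 21 and 23 CPM in tubes 11 to 15 and at 21.4 CPM in tube 29, with a midpoint of 14.9 CPM. Mctp1 was at 10.9, 16.6, 21.6, 20.2 and 15.9 CPM in tubes 11 to 15 and at 17.9 CPM in tube 29, and tube 11 was the lowest of all 36 oocytes. Dpp9 was at 6.31, 6.84, 5.99, 2.25 and 2.71 CPM in tubes 11 to 15 and 3.03 CPM in tube 29, above its midpoint of 2.14 CPM but close to it in tube 14.

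Nif3l1 lay on the Drp1_KO side of its midpoint (59.6 CPM) in tubes 12 and 13, at 66.5 and 75.1 CPM, and on the other side in tubes 11, 14, 15 and 29, at 41.1, 41.8, 29 and 42 CPM. Tube 13 was the highest and tube 15 the lowest of all Drp1_WT oocytes, so the 5 tubes cover the whole Drp1_WT range. Trip10 crossed its midpoint of 17.4 CPM in tube 13 alone, at 16.3 CPM, and was at 22.3, 31.1, 29.2 and 28.2 CPM in tubes 11, 12, 14 and 15. Tube 29 had 17.6 CPM of Trip10, just on the Drp1_WT side. Plek crossed its midpoint of 9.51 CPM in tube 12 alone, at 8.08 CPM, and was at 23.2, 14.9, 16.5 and 16.6 CPM in tubes 11, 13, 14 and 15 and at 11.3 CPM in tube 29.

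In Dip2c these oocytes ran from the highest level of all 36 oocytes to the lowest of Drp1_WT. Tubes 11, 12 and 13 were above every other oocyte of the study, while tubes 14 and 15, at 18.5 and 19.9 CPM, lay inside the range of the 12 other Drp1_WT oocytes, 14.2 to 22.8 CPM. Tubes 11 and 12 came from mouse 3 and tube 13 from mouse 4. Tube 29 was on the Drp1_KO side of the midpoint of 13.5 CPM, at 7.83 CPM, below the 12 other Drp1_WT oocytes. Chrdl1 was at 10.6, 3.88, 0, 0 and 0.319 CPM in tubes 11 to 15 and at 4.95 CPM in tube 29, and the 0 of tubes 13 and 14 puts them on the Drp1_KO side together with 8 of the 12 other Drp1_WT oocytes. These 6 oocytes held 120 of the 225 counts of Chrdl1 in Drp1_WT (53.3%).

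Spread among oocytes of one mouse was described with the biological coefficient of variation (BCV) that edgeR fits per gene, set beside the trend of all genes at the same level. Plek was the most uneven for its level, with a BCV of 0.575 against a trend of 0.339 (1.70 times the trend), and Trip10 followed with 0.431 against 0.306 (1.41 times). The other 5 genes fitted were near the trend, from 0.835 times for Nif3l1 to 1.08 times for Dpp9. Over 10658 genes the median was 0.921 times the trend and 7.91% of genes were above 1.4 times. Without tube 10 of mouse b Plek remained at 1.59 times the trend, while Trip10 came to 1.2 times, with a BCV of 0.299 against 0.248. Chrdl1 was too sparse to enter this fit.

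Co-variation was measured as Spearman's rho over 36 oocytes of log2(CPM+1) after the mean of each mouse was removed, which also removes the difference between the labels. The oocytes share 9 mice, and depth and the number of genes detected enter every gene. Among the 28 pairs of the 8 genes 15 were positive and 13 negative, with a median of 0.056, and 21 lay between -0.3 and 0.3. Most pairs of the 8 genes were thus only weakly linked from oocyte to oocyte, and no such count is given for pairs of other genes. With 2 genes chosen as higher and 6 as lower, the split of signs cannot tell whether they moved jointly. The lowest values were those of Nif3l1 with Gulo (-0.50) and with Plek (-0.45), and the highest were Dpp9 with Chrdl1 (0.35) and Plek with Gulo (0.31). Chrdl1 had a count in only 11 of the 36 oocytes, and its zeros share 1 value within a mouse. Every rho of Chrdl1 therefore rests on few oocytes. Without tube 10 Nif3l1 stood at -0.48 with Gulo and at -0.41 with Plek, and Trip10 stood at 0.42 with Gulo and 0.42 with Plek, against 0.20 and 0.21 with tube 10. Trip10 and Dpp9, the pair on chromosome 17, had a rho of 0.16, and -0.066 without tube 10. Mctp1 had a rho of 0.52 with Dnm1l (0.50 without tube 10), the highest of the 8 with that gene. In mouse 3 Dnm1l was at 134 and 116 CPM in tubes 11 and 12, against 254 to 286 CPM in tubes 7, 8 and 10. Mctp1 was at 10.9 and 16.6 CPM in tubes 11 and 12, against 19.8 to 24.5 CPM in tubes 7, 8 and 10. Removing the mouse mean keeps such differences within a mouse, and the part of tubes 11 and 12 in this rho was not tested. Dpp9 had a rho of 0.49 with the number of genes detected (0.38 without tube 10) and Nif3l1 one of 0.37 (0.27 without tube 10).

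**Figure D4:**
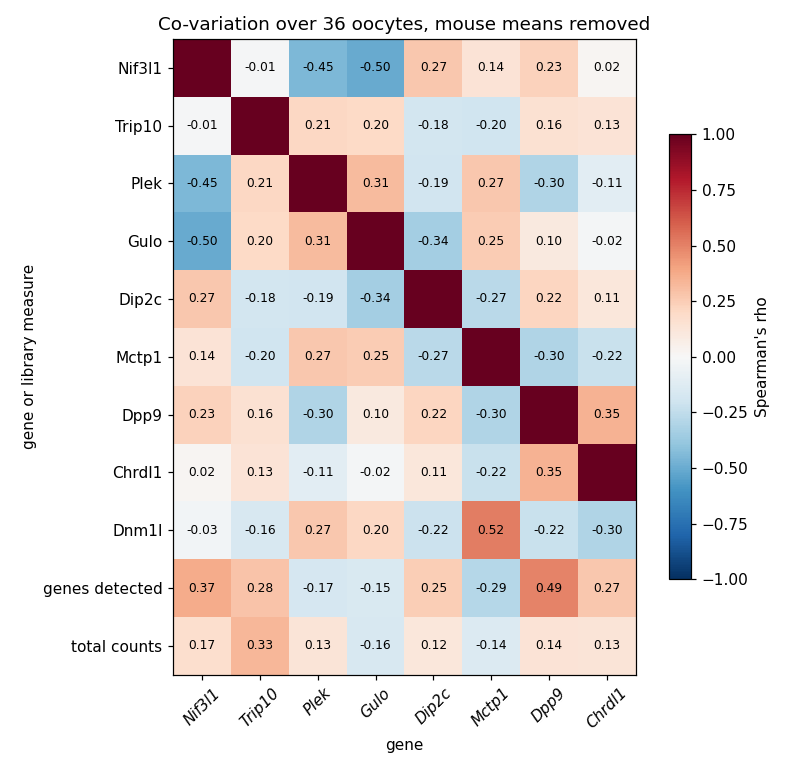
Spearman's rho over 36 oocytes, mouse means removed, between the 8 genes (columns) and the same genes, Dnm1l, the number of genes detected and the total count (rows). Most cells among the 8 genes are pale, with 21 of the 28 pairs between -0.3 and 0.3, and Nif3l1 with Gulo and with Plek are the darkest blue.

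The 3 genes with the pattern most like each of the 8 were taken from 8712 genes of at least 5 CPM, so a high rho at the top of the list is partly a matter of how many genes were ranked. For Trip10 these were Smu1 (0.87), a splicing factor, Psmc1 (0.86), a proteasome ATPase, and Dnajc11 (0.86), a mitochondrial J protein. Without tube 10 Smu1 was again first, at 0.81. For Plek they were Mtbp (0.79), F13a1 (0.78), the A chain of coagulation factor XIII, and Zc3h12c (0.72), and Mtbp kept 0.80 without tube 10. For Dip2c they were Erbin (0.79), Gsk3b (0.72) and Tln2 (0.72), with Erbin at 0.81 without tube 10. Dpp9 was most like Gbe1 (0.76), the glycogen branching enzyme, Nudcd3 (0.75) and Brf1 (0.74), a factor of RNA polymerase III, and Gbe1 had 0.74 without tube 10. For Nif3l1 (Gtf3c6 0.67, Gna13 0.67, Fam208a 0.66), Gulo (Frk 0.66, Mthfd2 0.65, Lrriq1 0.55), Mctp1 (Ttc8 0.66, C87414 0.65, Rbbp9 0.63) and Chrdl1 (Ddr2 0.63, Ercc6l2 0.56, Orc2 0.53) the values were lower and are no more than the top of a long ranking. Those of Chrdl1 rest mainly on the 11 oocytes with a count of it. None of the genes named here as most alike had an adjusted p under 0.05 between the labels in edgeR.

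How many genes went along with each of the 8 differed. A rho of at least 0.6 was reached by 356 genes with Trip10 and 250 with Dpp9, against 35 with Plek, 34 with Dip2c, 14 with Nif3l1, 4 with Mctp1, 2 with Gulo and 1 with Chrdl1. Tube 10 alone moved these counts: without it they were 113 for Trip10, 92 for Dpp9, 66 for Plek, 66 for Dip2c, 5 for Nif3l1, 2 for Mctp1, 3 for Gulo and 1 for Chrdl1. Trip10 and Dpp9 remained the 2 with the most such genes under both counts. With tube 10 kept, a rho of -0.6 or lower was reached by 44 genes with Trip10, 42 with Plek and 26 with Dpp9. For the others this number was 1 to 11. Both signs together made 4.59% of the 8712 genes for Trip10, 3.17% for Dpp9 and 0.884% for Plek. No such count is given for genes outside the 8.

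Relatives of the 8 genes were followed in the same comparison of mice, in lists set by what the genes do. Of 98 tested relatives in 6 lists 0 passed the adjusted p of 0.05 in edgeR and 9 had an unadjusted p under 0.05, where 9.69% of all genes had one. limma-voom and limma-trend also called 0, and DESeq2 called 1, Grem1 (adjusted p = 0.0258). Of the BMP ligands, receptors and antagonists 26 of 36 were tested, with 1 higher and 2 lower in Drp1_KO at an unadjusted p under 0.05. Grem1, another secreted BMP antagonist, was at 0.647 ± 0.124 CPM in Drp1_KO and 2.62 ± 1.69 CPM in Drp1_WT (log2 fold change -1.98, SE 0.50, adjusted p = 0.426 by edgeR). Bmp7 was at 0.691 ± 0.449 CPM in Drp1_KO and 1.45 ± 0.447 CPM in Drp1_WT, and Bmp5 at 147 ± 9.21 CPM in Drp1_KO and 126 ± 6.06 CPM in Drp1_WT, both with adjusted p above 0.05. The oocyte's own ligands were abundant and had an unadjusted p above 0.05: Gdf9 was at 4177 ± 585 CPM in Drp1_KO and 4557 ± 319 CPM in Drp1_WT, and Bmp15 at 2520 ± 343 CPM in Drp1_KO and 2652 ± 263 CPM in Drp1_WT.

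Of 10 tested genes of vitamin C synthesis and transport 0 had an unadjusted p under 0.05. The transporter Slc23a2 was at 112 ± 11.8 CPM in Drp1_KO and 131 ± 26.4 CPM in Drp1_WT. Of 24 F-BAR proteins and Cdc42 partners, Fcho2 had a log2 fold change of 0.42 (SE 0.16) and Pacsin2 of -0.33 (SE 0.13) at an unadjusted p under 0.05, and the direct relatives of Trip10 were near 0, at 0.14 (SE 0.21) for Fnbp1 and -0.015 (SE 0.12) for Fnbp1l. Of 12 dipeptidyl and prolyl peptidases only Dpp3 had an unadjusted p under 0.05 (log2 fold change -0.76, SE 0.31), and Dpp8, the closest relative of Dpp9, was at 6.67 ± 1.58 CPM in Drp1_KO and 5.92 ± 1.13 CPM in Drp1_WT. Of 15 C2-domain proteins Cpne3 had a log2 fold change of 0.40 (SE 0.14), Mctp2 of -0.31 (SE 0.14) and Dysf of -0.83 (SE 0.34) at an unadjusted p under 0.05, and Mctp2 thus had the sign opposite to that of Mctp1. Of 11 relatives of DIP2, pleckstrin and NIF3 0 had an unadjusted p under 0.05, with Dip2a at 0.16 (SE 0.30), Dip2b at -0.011 (SE 0.11) and Cops2 at 0.23 (SE 0.12). The count of 9 relatives was 4 without mouse b or mouse d, 15 without mouse c and 16 without mouse 5.

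Chromosomal neighbours were the other set. Within 1 Mb of the 8 genes lay 113 tested genes, of which 0 passed the adjusted p of 0.05 in edgeR, DESeq2, limma-voom or limma-trend and 15 had an unadjusted p under 0.05 (13.3%, against 9.69% of all genes), 8 higher and 7 lower in Drp1_KO. The count was 7, 9 and 6 without mouse b, 1 or 4. Around Trip10 and Dpp9 lay 48 of them, with 2 higher and 6 lower (16.7%), and 30 of these lay between the pair, with 1 higher and 4 lower. Those between them were Catsperd (0.54, SE 0.19) on the higher side and Nrtn (-1.26, SE 0.36), Dus3l (-0.61, SE 0.25), Ranbp3 (-0.57, SE 0.25) and Safb2 (-0.37, SE 0.13) on the lower side, as log2 fold changes, with adjusted p of 0.471 or more in edgeR. Nrtn, the growth factor neurturin, was at 0.645 ± 0.322 CPM in Drp1_KO and 1.59 ± 0.246 CPM in Drp1_WT. The tested genes next to the pair had no such p: Gpr108 was at -0.22 (SE 0.16) and Vav1 at -0.57 (SE 0.36) beside Trip10, and Mydgf at -0.032 (SE 0.14) and Fem1a at -0.063 (SE 0.20) beside Dpp9. The stretch between Dpp9 and Trip10 was singled out after its values were seen.

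**Figure D5:**
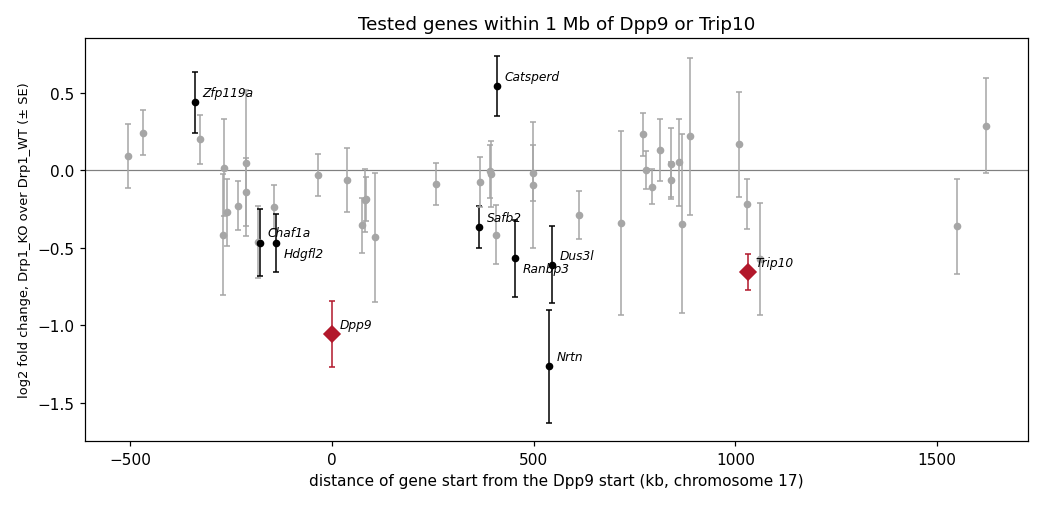
log2 fold change (Drp1_KO over Drp1_WT, ± SE) of the tested genes within 1 Mb of Dpp9 or Trip10, against the distance of the gene's start from that of Dpp9 in kb. Diamonds are Dpp9 and Trip10, black points have an unadjusted p under 0.05, and of the 48 neighbours 33 lie below 0. Of the 113 neighbours of all 8 genes 63 do, and the median over all genes tested was -0.0032. Whether the neighbours of this pair differ from other genes was not tested.

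Taken singly, Trip10 had 15.2% of its 33 tested neighbours and Dpp9 18.2% of its 44 at an unadjusted p under 0.05, lists that share genes. Nif3l1 had 0 of 20 and Plek 0 of 9. Gulo had 3 of 14 (21.4%), Esco2 (0.31, SE 0.11) and Fbxo16 (0.43, SE 0.16) on the higher side and Trim35 (-0.58, SE 0.24) on the lower, while Clu and Ephx2, the next genes, had no such p. Mctp1 had 2 of 10 (20%; Arsk at 0.55 and Fam172a at 0.28), Dip2c had 1 of 7 (14.3%; Gtpbp4 at 0.26) and Chrdl1 had 1 of 5 (20%; Trpc5 at 0.66), all on the higher side and all as log2 fold changes. The shares of Gulo, Mctp1, Dip2c and Chrdl1 lie above the 9.69% of all genes, but each rests on 1 to 3 genes. Those of Trip10 (1 higher and 4 lower) and Dpp9 (2 higher and 6 lower) lie above it too. None of these neighbours passed the adjusted p of 0.05 in edgeR.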

How the data were processed

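Each oocyte was its own library, made with a low-input cDNA kit and a tagmentation library kit and read single-end, per the labels' protocols, and the kits keep no strand and name no molecular identifiers. Per the submitters' processing notes, STAR, featureCounts, Subread 1.5.2 and Picard were used with GRCm38. The step each did, the strand setting and the annotation release are not stated in the sources at hand. The authors deposited raw counts for 21968 Ensembl genes in 36 oocytes, and GENCODE M21 names 21876 of them. Oocytes of one label were compared in 306 pairs, and the lowest chi-square of a pair's counts was 5.47 times its degrees of freedom, beyond sampling noise.

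Counts were summed per mouse, since oocytes of a mouse are not independent. edgeR 4.0.16 (R 4.3.3) used TMM factors, its low-count filter (by genotype) and its quasi-likelihood fit in the robust form, with Benjamini-Hochberg adjustment over 12812 genes. The scripts were tested on simulated data. Levels of single oocytes use their own totals, with a pseudocount of 1 on the log2 scale. Alternatives were DESeq2 1.42.0, limma 3.58.1 (voom and trend), other scalings and filters, tube set as a term or tubes 1 to 15 only, and mice or oocytes left out. The members and lists were chosen with earlier results of these data known. The genes named are the 8, Dnm1l, those next to them in order of p, the 3 most like each, and relatives and neighbours with an unadjusted p under 0.05, next to a member or directly related to it. The 5 pairs of genes followed across settings, the limits of 0.6 and 0.3 on rho and of 1.4 on spread, and the promoters printed were picked after values were seen. Members of the lists without a match were Card8 and Ferl1l4. Whether mice of a label came from separate litters is not known.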

Additional observations from a re-analysis of the deposited data

Results flagged for a closer look

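Among the 16 groups formed by 8 genes and 2 genotype labels, 1 was uneven between mice. Plek in Drp1_WT mice had 24.2 CPM in mouse 2, against 12.6 to 15.1 CPM in mice 1, 3, 4 and 5, a gap that is large beside the whole range of the group. Chance marks about 1 in 20 groups in this way. Without mouse 2 the log2 fold change of Plek between the labels was -0.91, against -1.10 with all mice.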

How the results depend on the processing

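The sign of the genotype difference of all 8 genes was the same under every alternative in which the gene could be tested. The alternatives refit the counts and the contrast that chose the genes. The kept sign and the numbers of the 8 that passed are therefore a description and no support. The count of genes past the adjusted p was 2 in edgeR, 37 in DESeq2, 9 in limma-voom on oocytes and 4 with tubes 1 to 15 only, and 1 to 3 with each mouse left out. Of the 8 genes 0 passed in edgeR, 8 in DESeq2, 3 in limma-voom and 0 to 1 with each mouse left out. In the comparison of tube sets 639 genes passed, 1619 in DESeq2, 1239 without KO tube 10, 1 without WT tubes 11 to 15 and 1 to 1675 with each mouse left out, and 0 of the 8 in all of these. Tube set values changed sign in places: Trip10 was -0.019 with library totals alone, Dip2c 0.074 without WT tubes 11 to 15, Mctp1 0.015 without KO tube 10, and Chrdl1 0.97 (SE 1.55) in DESeq2, against -0.39 (SE 1.25) in edgeR. With each mouse left out these values ran from -0.29 to 0.19 for Dip2c, -0.27 to 0.14 for Gulo, -0.055 to 0.047 for Mctp1 and -0.21 to 0.0054 for Plek. Neighbours with an unadjusted p under 0.05 numbered 15, and 8 in limma-voom, 9 with a mean of at least 5 CPM, 5 without WT tubes 11 to 15, 7 without these, WT tube 29 and KO tube 10, 23 within 2 Mb and 6 to 20 with each mouse left out. Relatives numbered 9, and 4, 5, 3 and 3 in those first 4 settings and 4 to 16 with each mouse left out. Spread ran from 0.835 times the trend for Nif3l1 to 1.70 times for Plek with all counts. After thinning, where Dpp9 could not be fitted, it ran from 0.875 times for Nif3l1 to 1.66 times for Plek. Without KO tube 10, a setting chosen after seeing the data, it ran from 1.01 times for Gulo to 1.59 times for Plek. The median over all genes was 0.921 times with all counts and is not given for the other fits. Scaling by library totals alone moved the median log2 fold change of all genes to -0.089. Apart from what the settings leave out by construction, the cause was not tested.

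No paired analysis was possible because the mice carry letters under one label and numbers under the other, 4 against 5. Depth limits Dpp9 and Chrdl1 most, with at most 50 and 83 counts in an oocyte, and without molecular identifiers these counts are not independent molecules.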
